A study of Homo sapiens with 4 samples.

Results

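Integrins are the cell-surface receptors for the extracellular matrix, and laminins are the main adhesive proteins of the basement membrane that epithelial integrins hold. All genes of both families with a probe set of their own were followed here: 35 of the 18417 genes measured, of which 17 encode integrin alpha chains, 8 integrin beta chains and 10 laminin chains. Members were matched by symbol (ITGA, ITGB and LAMA, LAMB or LAMC), and each was represented by 1 probe set. Earlier results of these data were known when the families were chosen. ITGA1 shares its probe set with another gene and was not included, and 2 laminin chains were not analysed here.

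The arrays came from HCE, a cell line labelled undifferentiated, in a series on the corneal epithelium and the zinc finger transcription factor KLF7. Wells of 100000 cells in Occulife medium received 20 nM of either a scramble control siRNA pool (2 samples) or a pool against KLF7 (siKLF7, 2 samples), and RNA was taken 48 hours later. All 4 samples are labelled as transfected cells of 1 line, and nothing in the labels tells whether the 2 samples of a group were separate cultures. The p-values thus reflect the spread of these particular samples, possibly technical spread alone. Levels are given as log2(signal + 16), where signal is the deposited linear array intensity, and differences are on that scale, which understates the change of dim genes. Levels of different genes come from different probes and were not compared with each other. Marker signals were summed within lists, and such a sum follows its brightest genes.

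An integrin is a pair of 1 alpha and 1 beta chain. A laminin is a cross-shaped trimer of 1 alpha, 1 beta and 1 gamma chain that is assembled before secretion. In stratified epithelia such as the cornea, alpha-6/beta-4 anchors basal cells to laminin-332 through hemidesmosomes, while alpha-3/beta-1, alpha-2/beta-1 and the alpha-V pairs serve adhesion to laminin, collagen and provisional matrix and cell migration during wound repair.

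The targeted gene, KLF7, had levels of 12.19 and 11.52 in scramble control replicates 1 and 2 (control 1 and control 2 from here on) and of 10.56 and 10.15 in siKLF7 replicates 1 and 2. Both siKLF7 arrays lay below both controls, by a mean of -1.50 (SE 0.28, limma's adjusted p = 0.639) against both and -1.16 (SE 0.13, adjusted p = 1.2e-09) against control 2. The 2 controls were unlike each other: across genes, the correlation of control 1 with each other array was 0.934 to 0.938, against 0.990 to 0.994 among the rest. Of 9 corneal epithelial markers matched, 5 were at least 2-fold lower in control 1 than in the mean of the other arrays. Relative to that mean, the level in control 1 differed by -6.89 for KRT3 and -4.78 for KRT12, the cornea-type keratins, by -2.50 for KRT15, a basal keratin, and by -0.56 and -0.16 for the basal keratins KRT14 and KRT5. The others on the list differed by -4.21 (ALDH3A1), -1.33 (EPCAM), -0.88 (PAX6) and, the other way, 0.28 (CDH1). Between the 2 controls directly, 2.95% of all genes were at least 2-fold lower in control 1 and 2.34% higher. KRT3 had a signal of 0.0055 in control 1, near the lower end of the scale. The summed signal of these 9 markers was 25924 and 35058 in the controls and 38803 and 41517 in the siKLF7 arrays. KRT5 and KRT14 carried most of this sum in control 1, at 11828 and 8379, so it hides the wider gaps of the other markers. Fibroblast and keratocyte markers summed to 4449 and 2574 in the controls and 3055 and 2942 in the siKLF7 arrays, with 2 of 11 at least 2-fold higher in control 1 than in the mean of the others. Those were POSTN (3.50) and THY1 (2.64), while LUM went the other way, at -0.73 relative to that mean. Of 7 vascular endothelial and 4 melanocyte markers, 0 were at least 2-fold apart between the controls. In such bulk RNA, fewer cells of a type and less RNA per cell cannot be told apart. The identity of the cells behind control 1 was not tested, and each value against control 1 or against both controls rests on it. The part of these differences in the results below was not tested. Comparisons were therefore run against both controls (4 arrays) and against each control alone (3 arrays). The 3-array fits had 1 residual degree of freedom, against 74.2 (control 2) and 86.2 (control 1) from limma's prior. A gene's SE there thus comes mostly from the siKLF7 pair's spread pooled over genes of like intensity, and little from its own pair. The lone control is assumed to vary alike, and these p-values do not measure a gene's own spread. Over the members, the SD of the pair had a median of 0.34 in the controls and 0.092 in siKLF7. If a lone control varies as the control pair did, these p-values are too small.

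LAMB4, a laminin beta chain, was higher after KLF7 knockdown against either control, and ITGB8, the beta partner of alpha-V that activates latent TGF-beta, lay on the same side of both controls. LAMB3, the beta chain of laminin-332, lay below both controls. In all, 3 of the 35 members lay above both controls and 14 below, beside 16.3% and 28.9% of all genes. ITGA6, the alpha chain of the hemidesmosome integrin, rose against control 2 and was lower than control 1. With all 4 arrays, limma passed 0 of 35 members at an adjusted p under 0.05, and 0% of all genes passed; 2 members (LAMB4 and ITGA7) and 5.8% of all genes had an unadjusted p under 0.05. Against control 2 alone, 2 members rose (LAMB4 and ITGA6) and 0 fell, beside 0.885% of all genes higher and 0.69% lower. Against control 1 alone, 16 members were lower and 2 higher (LAMB4 and ITGB8), where 13.4% of all genes passed in each direction.

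**Figure D1:**
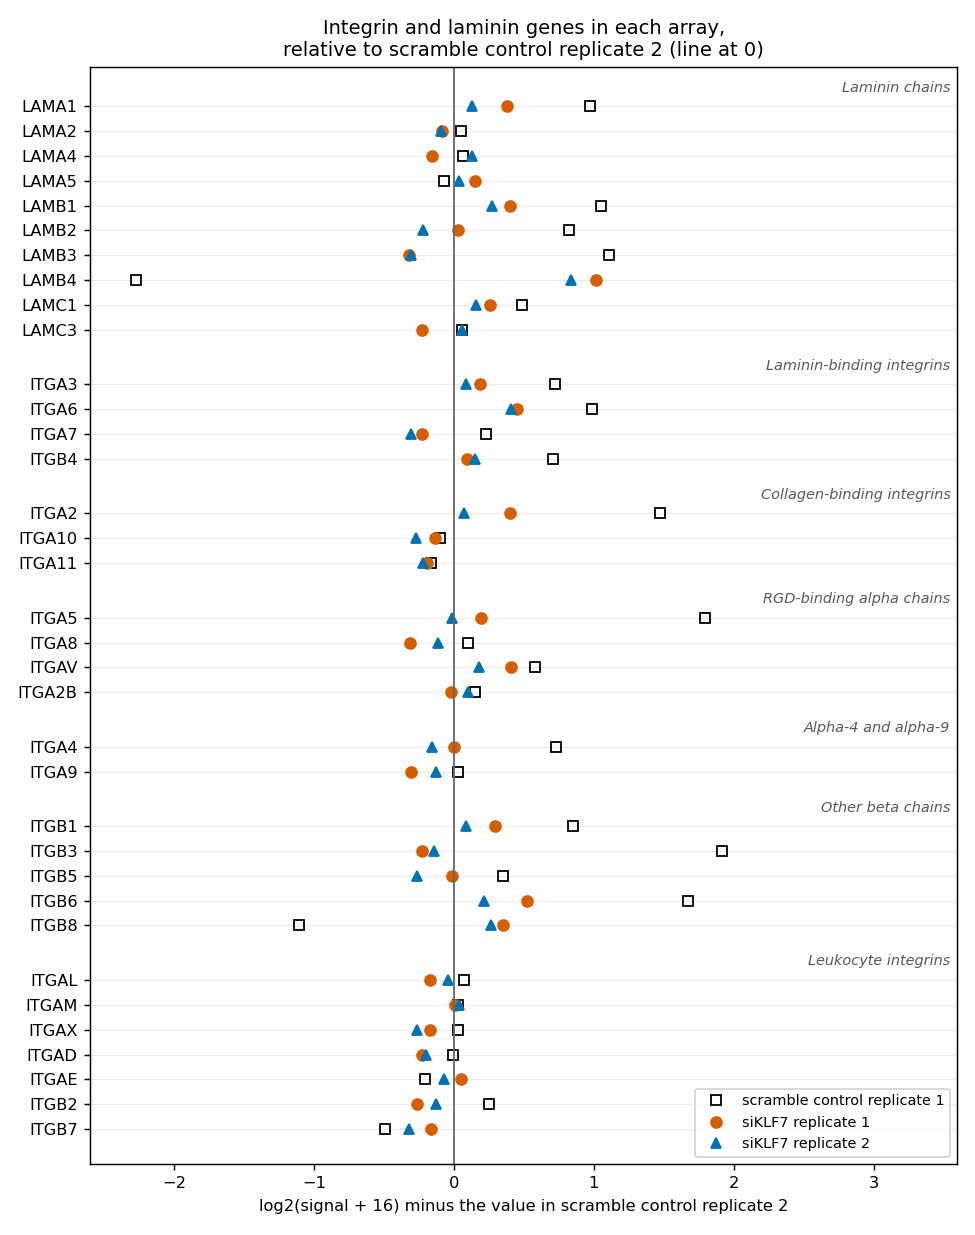
Each of the 35 genes in scramble control replicate 1 (open squares), siKLF7 replicate 1 (circles) and siKLF7 replicate 2 (triangles), as log2(signal + 16) minus the value in scramble control replicate 2, which is the line at 0. The siKLF7 arrays lie close together for every gene, and scramble control replicate 1 ranges from -2.27 for LAMB4 to 1.91 for ITGB3.

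The 250 bases before the RefSeq start are shown for LAMB4 and ITGA6, the members higher against control 2 alone. They are also shown for ITGB8 and LAMB3, picked from the 17 of 35 members that lay on 1 side of both controls. Kruppel-like factors as a family bind CACCC and GC-rich boxes, so CACCC on either strand (CACCC or GGGTG) is in capitals and the rest in lower case, 5' to 3' on the gene's strand.
LAMB4 (GRCh38.p14, chr7:108130362-108130611, minus strand): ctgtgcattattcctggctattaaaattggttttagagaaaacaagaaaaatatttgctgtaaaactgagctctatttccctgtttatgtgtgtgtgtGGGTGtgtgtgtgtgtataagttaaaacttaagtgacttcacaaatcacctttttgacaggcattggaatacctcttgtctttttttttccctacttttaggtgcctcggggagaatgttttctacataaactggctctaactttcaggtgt
ITGB8 (GRCh38.p14, chr7:20330650-20330899, plus strand): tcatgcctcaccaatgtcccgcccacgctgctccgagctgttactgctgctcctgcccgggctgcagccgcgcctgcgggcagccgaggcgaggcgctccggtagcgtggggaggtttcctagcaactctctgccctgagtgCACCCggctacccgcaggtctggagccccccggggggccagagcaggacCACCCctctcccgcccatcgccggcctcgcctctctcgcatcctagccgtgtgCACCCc
LAMB3 (GRCh38.p14, chr1:209652426-209652675, minus strand): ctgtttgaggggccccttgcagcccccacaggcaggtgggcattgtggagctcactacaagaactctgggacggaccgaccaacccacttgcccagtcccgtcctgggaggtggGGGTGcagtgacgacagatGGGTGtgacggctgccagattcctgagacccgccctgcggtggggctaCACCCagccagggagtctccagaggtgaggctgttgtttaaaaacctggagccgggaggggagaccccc
ITGA6 (GRCh38.p14, chr2:172427086-172427335, plus strand): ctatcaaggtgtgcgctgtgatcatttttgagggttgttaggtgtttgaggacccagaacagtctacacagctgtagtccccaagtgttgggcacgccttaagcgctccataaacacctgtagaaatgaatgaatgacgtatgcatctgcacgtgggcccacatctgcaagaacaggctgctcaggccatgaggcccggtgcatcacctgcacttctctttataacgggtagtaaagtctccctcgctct
LAMB4 held 1 CACCC match, ITGB8 and LAMB3 held 3 each and ITGA6 held 0. RefSeq promoters were matched for 24 of the 35 members, and 18 of these 24 (75%) held at least 1 match in these 250 bases, against 57.8% of 14239 promoters of array genes and 54.7% of all 35116 promoters in the table. A GC box (GGGCGG or CCGCCC) was found in 12 of the 24 (50%), against 57.5% of array genes and 42.6% of all promoters, and matches of both kinds overlapped in 1 member, ITGA8. A match to these letters is a description and not a binding site, and no promoter was matched for ITGA3, ITGA7, ITGA9, ITGAD, ITGAL, ITGAX, ITGB2, ITGB3, ITGB4, LAMA1 and LAMC3.

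Among the laminin beta chains, LAMB4 stood at 6.06 and 8.33 in controls 1 and 2 and at 9.35 and 9.17 in the siKLF7 arrays. Both siKLF7 arrays were above both controls, and the controls were themselves 4.83-fold apart. The difference was 2.06 against both controls (SE 0.76, limma's adjusted p = 0.639). It was 0.93 against control 2 (SE 0.16, adjusted p = 6.6e-05) and 3.20 against control 1 (SE 0.16, adjusted p = 1.5e-31). The signal in control 1 was 50.7, against 306, 636 and 561 in the other arrays. LAMB1, the beta chain of the laminins of most basement membranes, is the next protein-coding gene to LAMB4 on chromosome 7. It had levels of 11.15 and 10.10 in the controls and 10.50 and 10.37 in the siKLF7 pair, so that the siKLF7 pair fell between the controls. LAMB1 was higher than control 2 by 0.33 (SE 0.14, adjusted p = 0.31) and differed from control 1 by -0.72 (SE 0.13, adjusted p = 4.2e-06). The neighbouring genes thus lay on opposite sides of control 1 and both above control 2, where LAMB4 passed and LAMB1 did not. Against both controls LAMB1 stood at -0.19 (SE 0.37, adjusted p = 0.838).

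LAMB3 had levels of 12.88 and 11.77 in the controls and 11.45 and 11.46 in the siKLF7 pair. Both siKLF7 arrays were below both controls and close to each other. The difference was -0.87 (SE 0.38, adjusted p = 0.639) against both controls, -0.32 (SE 0.11, adjusted p = 0.14) against control 2 and -1.42 (SE 0.09, adjusted p = 1.6e-24) against control 1. With quantile normalization the difference from control 2 became -0.33 and passed (adjusted p = 0.044). LAMB2, the beta chain of laminins at the neuromuscular junction and in the kidney, stood at 9.78 and 8.96 in the controls and at 8.99 and 8.74 after siKLF7. Control 2 lay within the siKLF7 pair, and LAMB2 differed from it by -0.10 (SE 0.16, adjusted p = 0.85) from control 1 by -0.92 (SE 0.16, adjusted p = 2.4e-06) and from both by -0.51 (SE 0.31, adjusted p = 0.639).

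**Figure D2:**
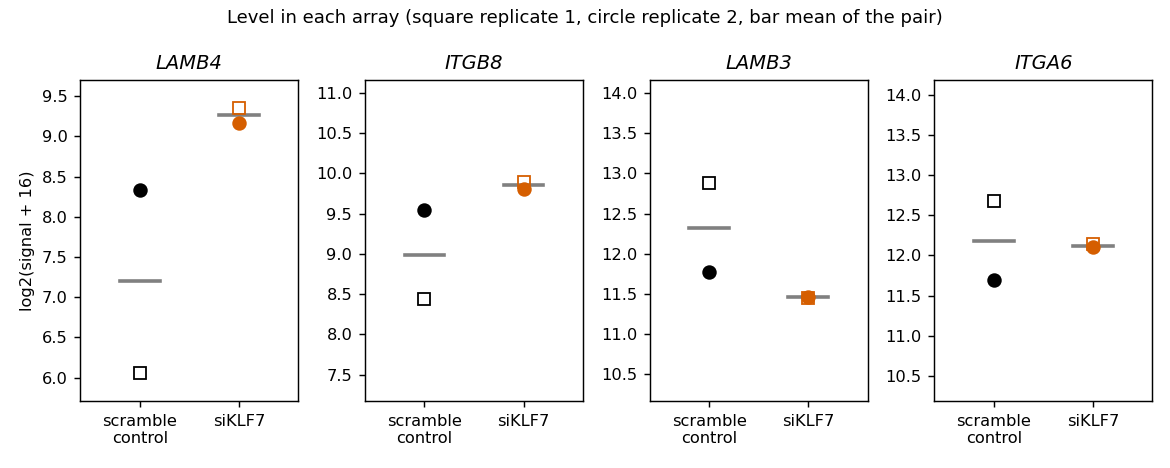
Level of LAMB4, ITGB8, LAMB3 and ITGA6 in each array as log2(signal + 16), with scramble control in black, siKLF7 in orange, squares for replicate 1, circles for replicate 2 and a bar at the mean of each pair. Every panel spans the same number of log2 units, and the siKLF7 pair lies above both controls for LAMB4 and ITGB8, below both for LAMB3 and between them for ITGA6.

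Of the 4 laminin alpha chains measured, LAMA5, the alpha chain of laminin-511, was nearly level, at 9.18 and 9.26 in the controls and 9.41 and 9.29 in the siKLF7 arrays. Both siKLF7 arrays were above both controls, by a mean of 0.13 (SE 0.13, adjusted p = 0.704), with 0.09 (SE 0.16, adjusted p = 0.85) against control 2 and 0.17 (SE 0.16, adjusted p = 0.47) against control 1. LAMA1, the alpha chain of laminin-111 in the early embryo, had levels of 8.38 and 7.41 in the controls and 7.79 and 7.54 in the siKLF7 pair. It differed by 0.25 (SE 0.16, adjusted p = 0.57) from control 2 by -0.72 (SE 0.16, adjusted p = 0.00026) from control 1 and by -0.23 (SE 0.35, adjusted p = 0.791) from both. LAMA2 and LAMA4, chains of muscle and vascular laminins, differed from either control by -0.14 to -0.014. The gamma chain LAMC1, shared by most laminins, stood at 10.31 and 9.82 in the controls and at 10.07 and 9.98 after siKLF7, and differed by 0.21 (SE 0.15, adjusted p = 0.62) from control 2, by -0.28 (SE 0.14, adjusted p = 0.15) from control 1 and by -0.04 (SE 0.21, adjusted p = 0.948) from both. Median differences over the 10 laminin chains were -0.11 against both controls, 0.04 against control 2 and -0.21 against control 1, beside -0.05, -0.04 and -0.05 over all genes.

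Among laminin receptors, ITGA6 had levels of 12.68 and 11.69 in the controls and 12.14 and 12.10 in the siKLF7 pair. The siKLF7 pair lay between the controls, which were 1.98-fold apart. ITGA6 rose by 0.43 (1.35-fold) against control 2 (SE 0.09, adjusted p = 0.0027) and differed by -0.56 from control 1 (SE 0.08, adjusted p = 3.3e-08), so that against both controls it stood at -0.06 (SE 0.34, adjusted p = 0.944). Without an intensity trend in limma's prior the rise did not pass (adjusted p = 0.25). ITGB4, its beta partner in hemidesmosomes, stood at 12.56 and 11.85 in the controls and at 11.94 and 12.00 after siKLF7. ITGB4 differed by 0.12 (SE 0.10, adjusted p = 0.66) from control 2, by -0.59 (SE 0.09, adjusted p = 2.3e-08) from control 1 and by -0.23 (SE 0.25, adjusted p = 0.716) from both. The difference between the ITGA6 and ITGB4 changes was not tested.

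ITGA3, the alpha chain of the laminin-332 receptor alpha-3/beta-1, had levels of 12.57 and 11.85 in the controls and 12.03 and 11.93 in the siKLF7 pair. ITGB1, the beta chain shared by the largest group of alpha chains, stood at 12.38 and 11.54 in the controls and at 11.83 and 11.62 after siKLF7. Both genes, like ITGA6 and ITGB4, had the siKLF7 pair above control 2 and below control 1. Against control 2 they differed by 0.14 (SE 0.10, adjusted p = 0.61) and 0.19 (SE 0.10, adjusted p = 0.50). From control 1 they differed by -0.59 (SE 0.09, adjusted p = 2.4e-08) and -0.66 (SE 0.09, adjusted p = 1.1e-08), and from both by -0.23 (SE 0.26, adjusted p = 0.727) and -0.23 (SE 0.30, adjusted p = 0.759). ITGA7, the laminin receptor of muscle, stood at 7.01 and 6.78 in the controls and at 6.55 and 6.48 in the siKLF7 arrays, which were below both controls. Its difference was -0.38 (SE 0.13, unadjusted p = 0.033, adjusted p = 0.639), and it passed only against control 1 (-0.50, SE 0.16, adjusted p = 0.014).

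ITGB8 had levels of 8.43 and 9.54 in the controls and 9.90 and 9.81 in the siKLF7 pair. The siKLF7 arrays were above both controls, which were 2.16-fold apart. The difference was 0.86 (SE 0.39, adjusted p = 0.639) against both controls, 0.31 (SE 0.15, adjusted p = 0.43) against control 2 and 1.42 (SE 0.16, adjusted p = 1.8e-12) against control 1. The other beta partners of alpha-V took other courses. ITGB6, the epithelial partner that is induced in wounds, stood at 11.95 and 10.28 in the controls and at 10.80 and 10.49 after siKLF7. ITGB6 was 0.37 above control 2 (SE 0.14, unadjusted p = 0.0092, adjusted p = 0.22) and 1.30 lower on the log2 scale, or 2.47-fold, than control 1 (SE 0.12, adjusted p = 4.8e-16). Against both controls it stood at -0.47 (SE 0.57, adjusted p = 0.745).

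ITGB5, a vitronectin receptor chain, had levels of 10.81 and 10.46 in the controls and 10.44 and 10.20 in the siKLF7 pair, which were below both controls. It differed by -0.31 (SE 0.19, adjusted p = 0.639) from both, by -0.14 (SE 0.14, adjusted p = 0.74) from control 2 and by -0.49 (SE 0.14, adjusted p = 0.0037) from control 1. ITGB3, the beta chain of the platelet and endothelial vitronectin receptors, stood at 9.51 and 7.60 in the controls and at 7.37 and 7.45 after siKLF7. Its signal of 714 in control 1 set it apart from 178, 149 and 159 in the other 3. The difference was -1.14 (SE 0.64, adjusted p = 0.639) against both controls, -0.19 (SE 0.16, adjusted p = 0.69) against control 2 and -2.10 (SE 0.16, adjusted p = 3.3e-20) against control 1. Vascular endothelial marker signals summed to 1498 and 1369 in the controls and 1181 and 1261 in the siKLF7 arrays, and their part in this difference was not tested. ITGAV, the alpha chain that pairs with all 4 of these and with beta-1, had levels of 11.00 and 10.41 in the controls and 10.82 and 10.60 in the siKLF7 pair. The siKLF7 pair lay between the controls, 0.29 above control 2 (SE 0.13, adjusted p = 0.37) and at -0.29 from control 1 (SE 0.13, adjusted p = 0.087, or 0.034 after median centring). Against both controls it stood at 0.0044 (SE 0.24, adjusted p = 0.996).

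The fibronectin receptor chain ITGA5 had levels of 11.52 and 9.73 in the controls and 9.92 and 9.71 in the siKLF7 pair. Control 2 lay within the siKLF7 pair, and the difference from it was 0.09 (SE 0.15, adjusted p = 0.85). ITGA2, which with beta-1 forms the epithelial collagen receptor, stood at 11.61 and 10.14 in the controls and at 10.54 and 10.21 after siKLF7. The siKLF7 pair was between the controls, 0.24 above control 2 (SE 0.14, adjusted p = 0.55). Both genes were lower than control 1, ITGA5 by 3.27-fold (adjusted p = 4.7e-19) and ITGA2 by 2.36-fold (adjusted p = 1.3e-13). Against both controls they differed by -0.81 (SE 0.61, adjusted p = 0.648) and -0.50 (SE 0.51, adjusted p = 0.704). ITGA10 and ITGA11, collagen receptor chains of cartilage and fibroblasts, lay below both controls in both siKLF7 arrays, by means of -0.16 and -0.13 that passed in no fit.

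**Figure D3:**
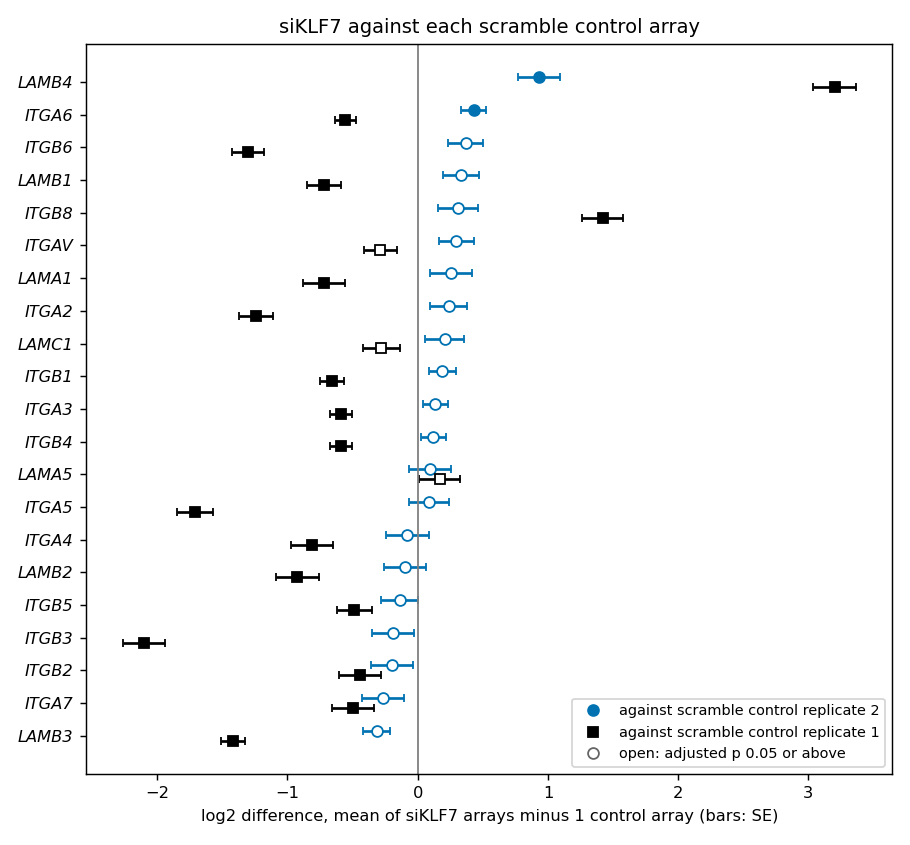
Mean of the siKLF7 arrays minus scramble control replicate 2 (blue circles) and minus scramble control replicate 1 (black squares) for the 21 genes described singly, in log2 units, with bars for the SE from limma; filled symbols had an adjusted p under 0.05. LAMB4, ITGB8 and LAMA5 lie to the right of 0 against either control, LAMB3 is furthest to the left against replicate 2, and 11 genes, ITGA6 among them, lie to the right against replicate 2 and to the left against replicate 1.

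Leukocyte integrins served as the members that an epithelial line would not be known for. Over ITGAL, ITGAM, ITGAX, ITGAD, ITGAE, ITGB2 and ITGB7, chains of T cell and myeloid receptors, the difference against both controls ranged from -0.32 for ITGB2 to 0.10 for ITGAE, with a median of -0.15. ITGB2, the beta chain shared by the leukocyte receptors, had levels of 7.46 and 7.21 in the controls and 6.94 and 7.08 in the siKLF7 pair. It was the one of the 7 that passed in a fit (-0.45 against control 1, SE 0.16, adjusted p = 0.029). ITGAM, ITGAX and ITGAD are neighbours on chromosome 16, and their differences were 0.01, -0.23 and -0.21. ITGA4, a chain of lymphocyte and mesenchymal receptors for VCAM1 and fibronectin, stood at 6.98 and 6.25 in the controls and at 6.25 and 6.09 after siKLF7, and passed against control 1 alone (-0.81, SE 0.16, adjusted p = 3.7e-05). Control 2 and the higher siKLF7 array were level at 2 decimals, so that its place below both controls rests on a smaller gap. Of 6 leukocyte markers matched, 0 were at least 2-fold apart between the controls. Leukocyte marker signals summed to 2006 and 1664 in the controls and 1486 and 1515 in the siKLF7 arrays. Most of this was CD68 alone, at 1419 and 1130 in the controls and 990 and 986 in the siKLF7 arrays. The part of leukocyte markers in these values was not tested.

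The 14 members not described singly, among them ITGA8, ITGA9, ITGA2B, LAMA2, LAMA4 and LAMC3, differed from both controls by -0.26 (ITGA8) to 0.10 (ITGAE), and passed in none of the 3 fits. ITGA9, which binds tenascin with beta-1, lay below both controls by a mean of -0.23 (SE 0.12, adjusted p = 0.639). Over all 35 members, both siKLF7 arrays lay above both controls for 3 and below both for 14. Among all genes these shares were 16.3% and 28.9%. Quantile normalization gave 4 and 12 members, beside 18.2% and 24.3% of all genes. Median centring gave 3 and 12 members, beside 18.2% and 26.3% of all genes. A further 10 members, all but LAMA1 from the epithelial list (ITGA2, ITGA3, ITGA6, ITGAV, ITGB1, ITGB4, ITGB6, LAMA1, LAMB1 and LAMC1), had the siKLF7 pair above control 2 and below control 1, beside 9.67% of all genes. The median member difference was -0.21 against both controls, -0.29 against control 1 and -0.014 against control 2, the last turning to 0.045 with quantile normalization. For the 25 integrins alone the 3 medians were -0.23, -0.32 and -0.08. For the 15 epithelial members matched they were -0.23, -0.59 and 0.19, beside -0.05, -0.05 and -0.04 over all genes. Of these 15, 2 lay below both controls and 2 above, and 12 had a difference above 0 from control 2. The pooled values thus do not describe the epithelial members. These comparisons share the siKLF7 arrays.

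The spread between the 2 controls was wider for these genes than that between the siKLF7 arrays. The controls were at least 2-fold apart for 8 members, 6 higher in control 1 (ITGA2, ITGA5, ITGB3, ITGB6, LAMB1 and LAMB3) and 2 lower (ITGB8 and LAMB4). Among all genes 2.34% were at least 2-fold higher there and 2.95% lower. The siKLF7 arrays differed by at most 0.33 in any member. The SD of the pair had a median of 0.34 in the controls and 0.092 in siKLF7 (log2, n = 2 each).

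Partners of integrins and laminins were taken from 4 lists. Of 24 basement membrane partners, 1 rose against control 2 and 0 fell, beside 0.885% and 0.69% of all genes: SPARC, a matricellular collagen-binding protein, had levels of 12.20 and 11.06 in the controls and 11.70 and 11.68 in the siKLF7 pair (0.63 against control 2, SE 0.11, adjusted p = 4.0e-05, but 0.06 against both controls). Of 30 other integrin ligands, 3 rose against that control and 0 fell. THBS2, a thrombospondin, rose by 0.92 (SE 0.16), TGFBI, the keratoepithelin of the cornea, by 0.53 (SE 0.11) and POSTN, periostin, by 0.86 (SE 0.18). POSTN was dim there, with signals of 25 in control 2 and 77 and 44 in the siKLF7 arrays. Its siKLF7 pair had an SD of 0.45 (log2), wider than that SE. Against both controls these 3 stood at 0.41, 0.07 and -1.18, with control 1 above both siKLF7 arrays for each. Over 40 adaptors and focal adhesion genes the median difference from control 2 was -0.017. Over 5 hemidesmosome and non-integrin laminin receptor genes it was -0.056, beside -0.040 over all genes. Against both controls 0 genes of the 4 lists passed in limma, and 2 of these 99 genes had an unadjusted p under 0.05, beside 5.8% of all genes. Against control 1, where 13.4% of all genes passed in each direction, 7 of the 24 basement membrane partners, 13 of the 30 ligands, 14 of the 40 adaptors and 2 of the 5 hemidesmosome genes were lower, and 1, 2, 2 and 1 were higher.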

How the data were processed

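The authors deposited 1 table of linear array intensity values for 33297 features in 4 whole-transcript arrays. Affymetrix Expression Console 1.1.1 and PLIER 2.0 were used, per the submitters' processing notes; the sources used here name no normalization between arrays. Platform annotation gave 1 symbol for 19460 features, several for 1754 and none for 12083; the feature with the highest mean log2 value represented each of 18417 genes. Groups and replicate numbers came from the sample titles.

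Values were analysed as log2(signal + 16), with no further normalization or filter, in limma 3.58.1 (R 4.3.3) with lmFit and trended eBayes; p-values were adjusted by Benjamini-Hochberg over all 18417 genes, and those under 0.05 passed. The fit against both controls had 2 residual and 2.63 prior degrees of freedom. Those against each control had 1 residual, and 74.2 (scramble control replicate 2) and 86.2 prior. An exact permutation test of 2 arrays against 2 cannot go below p = 0.33. The number of arrays limits the precision. The fits were run on simulated data with known changes. For the 3-array fits the simulated lone control was given the siKLF7 pair's spread, so the simulation cannot test that assumption.

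The members and lists were chosen with earlier results of these data known. Single values are given for members of an epithelial list, members that passed in any fit, and members at least 1.5-fold from the control mean with non-overlapping groups; of partner lists, up to 3 genes that passed against scramble control replicate 2, by p. Of the 17 epithelial and 106 partner genes written, 15 and 99 were matched. Alternatives were quantile normalization, median centring, pseudocounts of 1 and 32, leaving out the dimmest 25% or 50% of genes, the mean of a gene's features, other priors, a replicate block and the omission of each array. Motifs were searched in RefSeq promoters (GRCh38.p14). No genome was used. Figures were drawn with matplotlib 3.10.9.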

Additional observations from a re-analysis of the deposited data

How the results depend on the processing

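Leaving out 1 array moved the count of members passed against both controls between 0 and 18 (2 without scramble control replicate 1, 18 without scramble control replicate 2, 0 without either siKLF7 array), and their median difference between -0.29 and -0.014. The labels do not state that the replicate number pairs the samples. Deviations of same-numbered arrays from their group means correlated at -0.041 across genes. That value cannot tell whether samples were paired, because scramble control replicate 1 stands apart. With the replicate number as a block 0 members passed, as without it, and every difference was the same by construction.

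Leaving out each array in turn gave ranges that crossed 0 for ITGA2 (-1.24 to 0.24), ITGA3 (-0.59 to 0.14), ITGA5 (-1.71 to 0.088), ITGA6 (-0.56 to 0.43), ITGAV (-0.29 to 0.29), ITGB1 (-0.66 to 0.19), ITGB4 (-0.59 to 0.12), ITGB6 (-1.30 to 0.37), LAMA1 (-0.72 to 0.25), LAMB1 (-0.72 to 0.33) and LAMC1 (-0.28 to 0.21).

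Against scramble control replicate 2, 1 member passed without an intensity trend, and 172 genes of all did, against 290 otherwise and 484 with quantile normalization, which passed 3 members. Median centring passed 276 genes higher of 419, against 163 of 290. The member median moved from -0.014 to 0.045 with quantile normalization, 0.019 with median centring, and 0.11 and 0.20 without the dimmest 25% and 50% of genes, where 24 and 16 members were left. ITGA4 turned to 0.0063 with quantile normalization. Against scramble control replicate 1 the median moved from -0.29 to -0.26, -0.31, -0.49 and -0.59 under the same 4 settings. Apart from leaving out an array, 561 of 565 recomputed differences of single members kept their direction and their side of the threshold. The cause of the other 4 was not tested. Part of this count was fixed in advance. Each member had 1 probe set, so the mean of a gene's features could not change its difference. Neither could the other priors or the replicate block. The count is therefore no measure of robustness.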
